A study of Mus musculus with 6 samples.

Results

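The fibroblast growth factor (FGF) genes described here are 6 secreted ligands, Fgf1, Fgf2, Fgf7, Fgf9, Fgf10 and Fgf18, and the 4 receptor tyrosine kinases Fgfr1, Fgfr2, Fgfr3 and Fgfr4. The rule that chose them used gene names and no measured value, although earlier results of these data were known. All 10 were found among the 21603 mouse genes listed for each sample. RNA bound to ribosomes of lung pericytes was sequenced at postnatal day 8 from 3 control mice and 3 Yap1,Wwtr1 iPCKO mice of the C57BL/6 strain, and the comparison asks how these transcripts differed between pericytes with and without inducible deletion of both copies of the genes for YAP1 and TAZ, the transcriptional co-activators of the Hippo pathway that Yap1 and Wwtr1 encode. Both groups carried Pdgfrb(BAC)-CreERT2, a tamoxifen-inducible Cre driven from Pdgfrb regulatory sequence, and 1 Cre-dependent Rpl22 allele that adds an HA tag to ribosomes of recombined cells (RiboTag), and both received tamoxifen in the first days after birth. Controls were heterozygous (Yap1+/- and Wwtr1+/- in the labels), with 1 floxed and 1 wild-type allele per gene, and mutants carried floxed alleles only (Yap1-/- and Wwtr1-/-), so recombined control cells kept 1 intact allele of either gene. HA-tagged ribosomes come from every cell in which the Cre was active, so the samples represent Pdgfrb-expressing mesenchyme rather than a sorted pure population. The sex of the mice is not given in the labels, and its part in any difference was not tested.

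FGFs bind receptor tyrosine kinases together with heparan sulphate, and the receptors signal through the adaptor FRS2 to the RAS-ERK and PI3K pathways, which induce feedback inhibitors such as the Sprouty proteins and transcription factors of the ETV group. In the lung, mesenchymal FGF10 and FGF7 act on epithelial FGFR2, FGF9 from epithelium and mesothelium acts on mesenchymal receptors, and FGF18 is made by mesenchyme during alveolar formation. FGF1 and FGF2 lack a classical signal peptide and leave cells by a separate route. Alternative exons give FGFR1, FGFR2 and FGFR3 epithelial (IIIb) and mesenchymal (IIIc) forms, which a single value per gene cannot separate.

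Values are RPKM (reads scaled to exon length and library depth) as the authors computed them, so that levels of different genes are per length. The read steps left in low values implied 14.25 to 39.64 M reads per sample, with control 3 (34.69 M) and iPCKO 2 (39.64 M) the deepest. Yap1 ranged from 11.5 to 13.2 RPKM in controls and from 5.25 to 5.83 RPKM in iPCKO samples (limma, log2 fold change -1.12, adjusted p = 0.000175), whereas Wwtr1 ranged from 53.8 to 71.3 RPKM in controls and from 60.3 to 63.5 RPKM in iPCKO samples, so the total Wwtr1 value did not follow the genotype. A value per gene covers recombined and remaining exons together. The pericyte markers were abundant in every sample, with Pdgfrb between 1193 and 1666 RPKM, and every listed marker of any cell type that the files hold had a value above 0 in at least 1 sample. The mesothelial marker Muc16 had no row in the files used here. Markers of epithelium and of other mesenchymal cells were also present, and their levels stand beside the FGF results further on.

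Fgf18 was the most abundant of the FGF transcripts in controls and the only ligand at the level of the main receptors. By control mean it was followed by Fgfr2, Fgfr1, Fgfr3, Fgf1, Fgf2, Fgfr4, Fgf7, Fgf10 and Fgf9. Ranges over the 3 controls overlapped between the neighbours Fgf18 and Fgfr2, Fgfr2 and Fgfr1, and Fgf2 and Fgfr4, so the order within these pairs did not exceed the spread between samples. All other neighbours were separated. The order of different genes also depends on the exon length used for each, which is not given. In iPCKO samples Fgfr1 stood first, above Fgf18 and Fgfr3, and Fgfr2 took rank 4, while Fgf1 and the 5 genes below it kept their ranks. Ranges over the 3 iPCKO samples overlapped between Fgfr3 and Fgfr2, Fgf1 and Fgf2, and Fgf7 and Fgf10. The order within these pairs did not exceed the spread between samples.

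**Figure D1:**
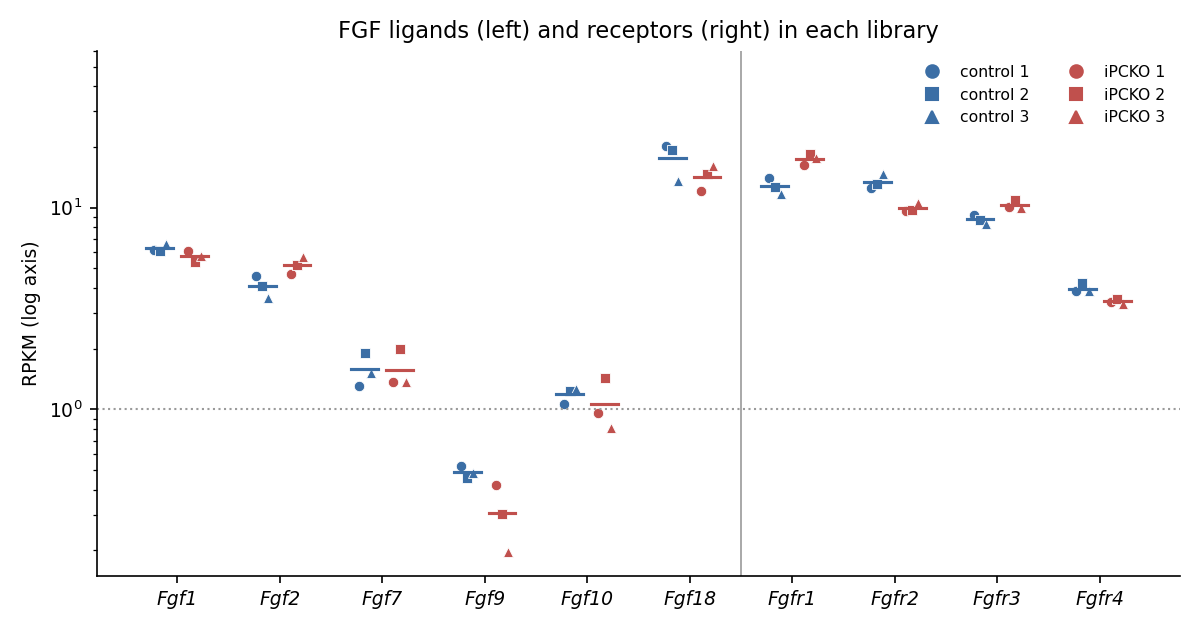
RPKM (log axis) of the 6 FGF ligands and 4 FGF receptors in each of 3 control (blue) and 3 iPCKO (red) samples, with horizontal bars at group means and a dotted line at 1 RPKM. Fgfr1 points of iPCKO samples lie above all control points and Fgfr2 points below them, whereas Fgf18, Fgf7 and Fgf10 points of both groups are interspersed.

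Fgfr1, which encodes a main receptor of FGF signals in mesenchyme, had 14.1, 12.7 and 11.6 RPKM in controls and 16.3, 18.4 and 17.7 RPKM in iPCKO samples (gene ENSMUSG00000031565, GRCm38 chromosome 8, 25513654 to 25575718, plus strand). Every iPCKO value lay above every control value. The means were 12.8 ± 1.2 RPKM (SD, n = 3) and 17.5 ± 1.1 RPKM (n = 3), with a log2 fold change of 0.45 (limma, SE 0.10, 95% interval 0.22 to 0.67, adjusted p = 0.0179). This was the largest absolute fold change among the tested FGF genes, and it passed neither the adjusted p threshold of 0.01 nor the fold threshold of 0.5 that define a call here. Fgfr1 was called in 1 alternative, limma with sample weights, where the log2 fold change was 0.56 (adjusted p = 0.000249, range over all alternatives 0.000249 to 0.0819).

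Fgfr2, the receptor for FGF7 and FGF10 in its epithelial form, had 12.5, 13.1 and 14.7 RPKM in controls and 9.69, 9.73 and 10.6 RPKM in iPCKO samples (chromosome 7, 130162451 to 133123350, minus strand). The groups were again separate, in the opposite direction to Fgfr1. The iPCKO mean was 74.5% of the control mean, 10.01 ± 0.51 compared with 13.4 ± 1.1 RPKM, with a log2 fold change of -0.42 (limma, SE 0.09, 95% interval -0.63 to -0.21, adjusted p = 0.0179), which did not reach the call thresholds either. In the annotation Fgfr2 shares 314 exonic bases, 3.0% of its exons, with Ctbp2 on the same strand, and Ctbp2 lay between 19.6 and 21.8 RPKM in all samples.

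Fgfr3 had 9.19, 8.71 and 8.34 RPKM in controls and 10.1, 10.9 and 9.97 RPKM in iPCKO samples (chromosome 5, 33721674 to 33737068, plus strand). All iPCKO values were above the controls by a small margin, and the log2 fold change of 0.24 (limma, SE 0.09, 95% interval 0.04 to 0.44) had an adjusted p of 0.102. In the annotation Fgfr3 shares 998 exonic bases, 13.9% of its exons, with G630022F23Rik on the opposite strand. No value is given for that gene, nor whether reads were counted by strand. FGFR3 and FGFR4 act together in alveolar development after birth. Fgfr4 was the lowest receptor, with 3.85, 4.23 and 3.85 RPKM in controls and 3.43, 3.54 and 3.33 RPKM in iPCKO samples (chromosome 13, 55152640 to 55168759, plus strand). Its groups did not overlap, the iPCKO values being lower, and the log2 fold change was -0.21 (limma, SE 0.10, 95% interval -0.43 to 0.02, adjusted p = 0.210).

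Receptor transcripts summed to 39.0 ± 0.6 RPKM in controls and 41.2 ± 1.6 RPKM in iPCKO samples, with overlapping ranges, while the shares of the single receptors were separate between groups. Fgfr1 made up 35.5%, 32.8% and 30.3% of the sum in controls and 41.2%, 43.2% and 42.6% in iPCKO samples. Fgfr2 made up 31.6%, 33.9% and 38.1% in controls and 24.5%, 22.8% and 25.5% in iPCKO samples. In RPKM, Fgfr1 and Fgfr2 were thus near 1 to 1 in controls, with Fgfr1 over Fgfr2 ratios of 1.13, 0.969 and 0.795, and Fgfr1 led in every iPCKO sample with ratios of 1.68, 1.89 and 1.67. The level of the ratio depends on the exon length used for each gene, which is not given. The mean ratio was 0.963 ± 0.165 in controls and 1.75 ± 0.12 in iPCKO samples (n = 3 each, two-sided exact permutation test, p = 0.1, the smallest that 3 against 3 samples can give). Fgfr1 and Fgfr2 were already separate in opposite directions, so the ratio had to separate and this p adds no further evidence. Shares are parts of 1 sum, so they do not move independently of one another.

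**Figure D2:**
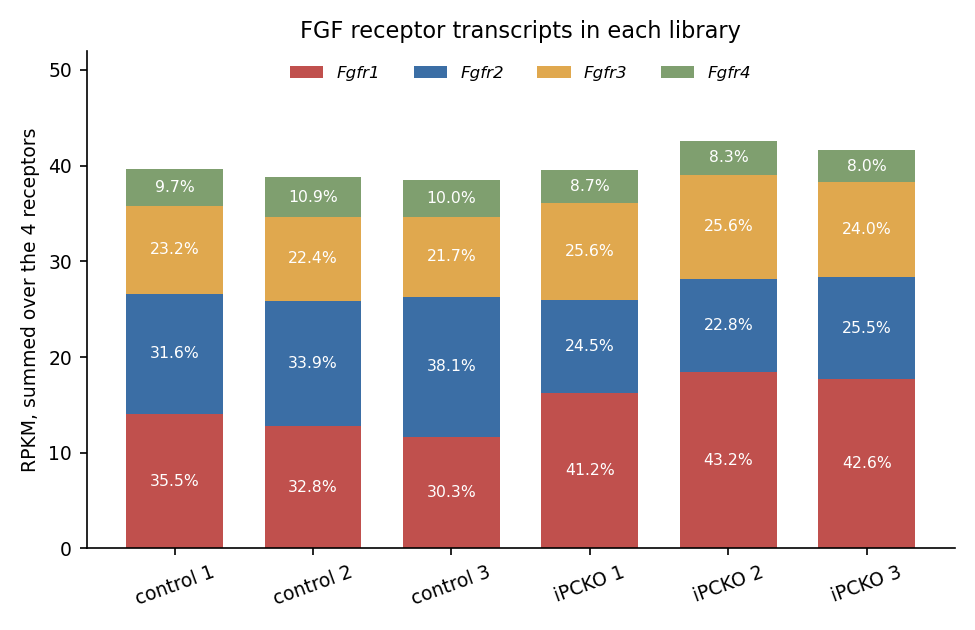
Stacked bars of RPKM summed over Fgfr1 (red), Fgfr2 (blue), Fgfr3 (yellow) and Fgfr4 (green) in each of the 6 samples, with each receptor's percent of the sum printed in its segment. Totals lie between 38.5 and 42.6 RPKM, and the Fgfr1 segment is larger than the Fgfr2 segment in all iPCKO bars.

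Among the ligands, Fgf18, which encodes a mesenchymal factor of alveolar and skeletal development, had 20.3, 19.2 and 13.5 RPKM in controls and 12.1, 14.7 and 16.0 RPKM in iPCKO samples (chromosome 11, 33117430 to 33147400, minus strand). Control 3 lay inside the iPCKO range, so the groups overlapped. The means were 17.7 ± 3.6 and 14.3 ± 2.0 RPKM, and the log2 fold change of -0.29 had a 95% interval from -0.67 to 0.09 (limma, SE 0.17, adjusted p = 0.280). A decrease of 0.5 on the log2 scale lies within that interval, so the data do not settle whether Fgf18 differed by an amount of that size. The value depended on single samples, with -0.47 without control 3 (limma, adjusted p = 0.0793), -0.18 without control 1 and -0.18 without iPCKO 1. Fgf18 accounted for 56.0 ± 5.2% of ligand RPKM in controls and 50.5 ± 3.2% in iPCKO samples, with overlapping ranges.

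Fgf2, which encodes basic FGF, a mitogen of mesenchymal and endothelial cells, had 4.56, 4.11 and 3.57 RPKM in controls and 4.69, 5.21 and 5.73 RPKM in iPCKO samples (chromosome 3, 37348346 to 37410108, plus strand). The groups did not overlap, although control 1 and iPCKO 1 were only slightly apart. The iPCKO mean was 128% of the control mean, with a log2 fold change of 0.35 (limma, SE 0.12, 95% interval 0.06 to 0.63, adjusted p = 0.0999). As a share of ligand RPKM, Fgf2 was 13.03 ± 0.54% in controls and 18.5 ± 0.6% in iPCKO samples, without overlap. Fgf2 shares 640 exonic bases with Nudt6 on the opposite strand, and Nudt6 had between 1.16 and 1.96 RPKM. The libraries were made with a stranded kit, but whether reads were counted by strand is not given in the sources used here.

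Fgf1, which encodes acidic FGF, a ligand of all 4 receptors, had 6.20, 6.13 and 6.64 RPKM in controls and 6.12, 5.40 and 5.80 RPKM in iPCKO samples. The iPCKO values were all lower, with iPCKO 1 just under control 2, and the log2 fold change of -0.13 (limma, SE 0.09, 95% interval -0.34 to 0.08, adjusted p = 0.389) did not pass. The interval for Fgf1 includes 0 and does not reach a change of 0.5 in either direction.

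The ligands for epithelial FGFR2 were low. Fgf7, which encodes keratinocyte growth factor, had 1.31, 1.91 and 1.52 RPKM in controls and 1.37, 2.00 and 1.36 RPKM in iPCKO samples (chromosome 2, 126034658 to 126091185, plus strand). The group means were 1.58 ± 0.30 and 1.57 ± 0.37 RPKM, the ranges overlapped, and the log2 fold change of -0.01 had an interval from -0.48 to 0.46 (limma, SE 0.20, adjusted p = 0.983). Fgf10, the mesenchymal inducer of lung branching, had 1.07, 1.23 and 1.27 RPKM in controls and 0.965, 1.43 and 0.808 RPKM in iPCKO samples (chromosome 13, 118669791 to 118792115, plus strand). Its ranges overlapped as well, and the log2 fold change was -0.18 (limma, SE 0.22, 95% interval -0.68 to 0.33, adjusted p = 0.642). Fgf10 was counted from an estimated 53 to 260 reads per sample, and a decrease of 0.5 lies inside its interval. Its log2 fold change was -0.39 without iPCKO 2 and -0.01 without iPCKO 3. Fgf7 and Fgf10 together had 2.77 ± 0.38 RPKM in controls and 2.64 ± 0.68 RPKM in iPCKO samples.

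Fgf9, known from epithelium and mesothelium, had 0.523, 0.457 and 0.487 RPKM in controls and 0.421, 0.302 and 0.197 RPKM in iPCKO samples (chromosome 14, 58070547 to 58112720). The groups did not overlap, with an iPCKO mean at 62.7% of the control mean. Fgf9 stayed under 1 RPKM in all 6 samples and was left out of the test by the filter on low values. In the fit without that filter, its log2 fold change was -0.57 (limma, adjusted p = 0.178). An estimated 13 reads stood behind the lowest value, iPCKO 3, which gives a counting error of 27.7% for that sample before any difference between mice.

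Genes were tested when 3 or more samples had 1 RPKM or more. Of the 10 FGF genes 9 met this, Fgf10 with 3 control and 1 iPCKO sample at that level and the other 8 with all 6. A gene was called when its adjusted p was below 0.01 and its absolute log2 fold change above 0.5 in limma. By this rule 0 of the 9 were called, while 6.79% of all 12034 tested genes were called, 4.11% as higher and 2.68% as lower in iPCKO samples. At an unadjusted p below 0.05, 4 of the 9 passed (Fgf2, Fgfr1, Fgfr2 and Fgfr3), compared with 29.7% of all tested genes. At an adjusted p below 0.05, regardless of fold, the 2 that passed were Fgfr1 and Fgfr2, compared with 15.2% of all tested genes. Without control 3 the adjusted p was 0.0819 for Fgfr1 and 0.0852 for Fgfr2, and both also lay above 0.05 without control 2 (0.0604 and 0.054) and without iPCKO 2 (0.0805 and 0.0777). Without iPCKO 3 this held for Fgfr1 (0.0605) and not for Fgfr2 (0.0339). The 3 samples of one group lay beyond the 3 of the other for 6 of the 9 tested FGF genes, which were Fgf1, Fgf2 and the 4 receptors, and for 35.5% of all tested genes. The median absolute log2 fold change was 0.24 over the 9 and 0.17 over all tested genes, and the signed medians were -0.13 and 0.00.

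**Figure D3:**
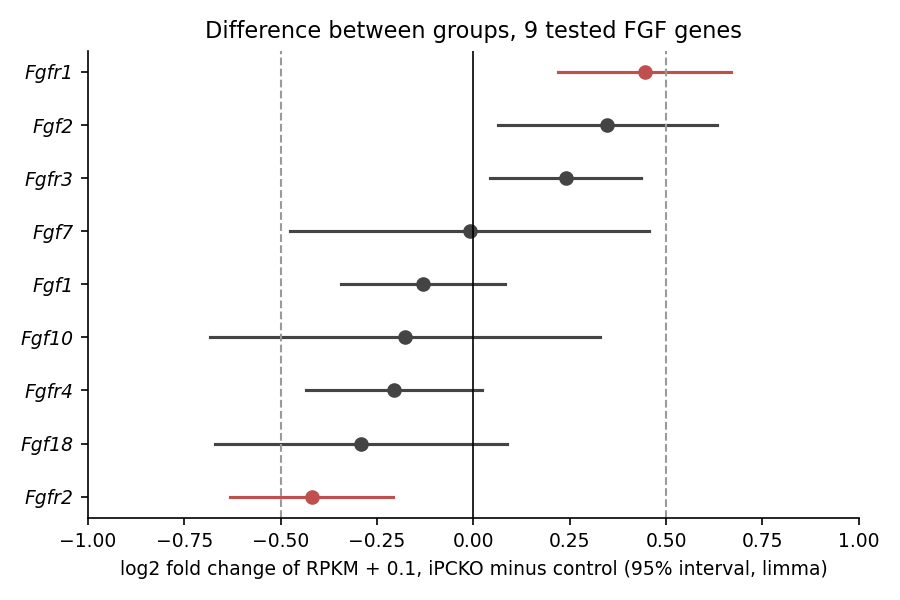
Log2 fold change of RPKM + 0.1, iPCKO minus control, for the 9 tested FGF genes with 95% intervals from limma (3 samples per group). Dashed lines mark 0.5 in each direction, and the 2 genes in red, Fgfr1 and Fgfr2, had an adjusted p below 0.05 but no point lies beyond the dashed lines.

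For the 2 most abundant FGF genes over all samples, Fgf18 and Fgfr1, the tested genes with the most similar pattern were found by the root mean square distance between log2 values centred on each gene's mean, over the 6 samples. Nearest to Fgf18 were Cib2 (distance 0.07), Spint2 (0.09) and Gypc (0.10), compared with a deviation of Fgf18 about its own mean of 0.26. Nearest to Fgfr1 were Fbxo6 (0.03), Cd276 (0.04) and Amigo2 (0.04), compared with a deviation of 0.24. With 6 samples and 12034 genes, close matches of this kind are found for many patterns, and they are given as a description.

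FGF signalling also depends on genes that bind ligands, shape heparan sulphate, carry the signal and feed back on it. Of 109 further FGF pathway genes, 79 passed the filter and 7 were called (8.86%, compared with 6.79% of all tested genes). Gpc1, Sulf2, Dusp5, Etv4 and Ccnd1 were higher in iPCKO samples and Gpc4 and Gpc6 lower. The median log2 fold change over the 79 was -0.02. With the samples left out 1 at a time, Ccnd1, Dusp5, Gpc1 and Gpc4 were called in all 6 cases, and they were the only 4 called without control 3 and without iPCKO 2.

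**Figure D4:**
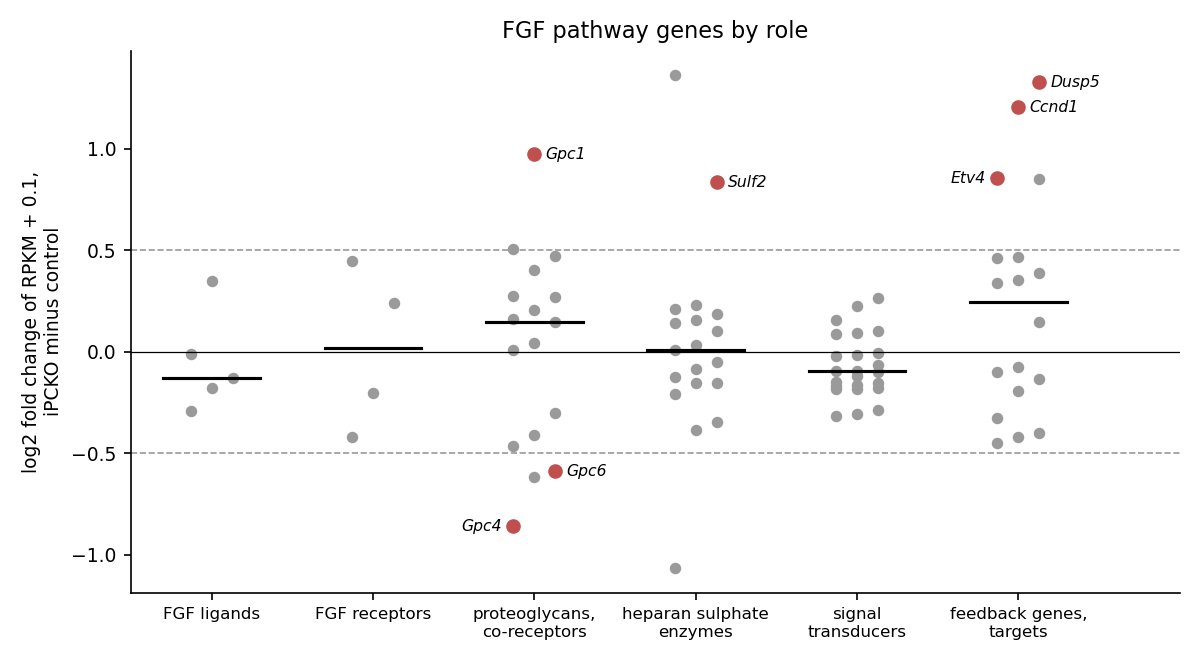
Log2 fold change of RPKM + 0.1, iPCKO minus control, of each tested gene by role in the FGF pathway, with called genes in red and named, others in grey, bars at the median of each group of genes and dashed lines at 0.5. The called genes lie among proteoglycans and co-receptors, heparan sulphate enzymes and feedback genes, and none among the ligands, receptors and signal transducers.

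Among the co-receptors and carriers, 17 of 23 genes were tested, 1 was called higher and 2 lower, compared with 4.11% and 2.68% of all tested genes. All 3 are glypicans, heparan sulphate proteoglycans anchored to the cell surface. Gpc4 had 81.0, 66.0 and 64.9 RPKM in controls and 37.0, 42.4 and 36.9 RPKM in iPCKO samples. It fell to 54.9% of the control mean, with a log2 fold change of -0.86 (limma, SE 0.11, adjusted p = 0.00158). Gpc1 moved the other way, from 21.8, 17.6 and 15.5 RPKM to 38.0, 34.5 and 34.5 RPKM, rising by 0.97 on the log2 scale (limma, SE 0.13, adjusted p = 0.00146). Gpc4 therefore lay above Gpc1 by a wide margin in every control sample, and the levels of both were close together in iPCKO samples. Gpc6 fell from 7.80, 7.67 and 7.94 RPKM to 4.98, 5.22 and 5.27 RPKM (limma, log2 fold change -0.59, SE 0.08, adjusted p = 0.00236).

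Of the most abundant co-receptors that were not called, the syndecan Sdc2 had 178 ± 10 RPKM in controls and 116 ± 18 RPKM in iPCKO samples, with a log2 fold change of -0.62 (limma, adjusted p = 0.0124). Hspg2, which encodes the basement membrane proteoglycan perlecan, had a log2 fold change of 0.47 (limma, adjusted p = 0.015). Nrp1, a co-receptor for VEGF and semaphorins that can also bind FGFs, had a log2 fold change of -0.41 (limma, adjusted p = 0.0169). These 3 were separate between groups and short of the call in p, in fold or in both, while Sdc3 overlapped between groups (log2 fold change -0.46, limma, adjusted p = 0.102). Fgfrl1, a receptor-like protein without a kinase domain that was picked out after its value was seen, had 10.5 ± 1.4 and 12.1 ± 2.2 RPKM (limma, log2 fold change 0.20, adjusted p = 0.388). The endocrine FGF co-receptors Kl and Klb, also picked afterwards, had group means from 0.0238 to 0.0339 RPKM.

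Of 25 heparan sulphate enzymes, 19 were tested and 1 was called (5.26%, compared with 6.79% of all tested genes). Sulf2, an extracellular sulphatase that removes sulphate groups from heparan sulphate, had 4.16, 5.01 and 4.44 RPKM in controls and 6.72, 8.98 and 8.96 RPKM in iPCKO samples. The groups did not overlap, and Sulf2 rose by 0.84 on the log2 scale (limma, SE 0.14, adjusted p = 0.00431). The most abundant of the others were Extl3, Ndst1, Hs2st1 and Ext2, which build and sulphate the chains, with log2 fold changes of -0.05, 0.23, -0.08 and 0.03 and no call. After their values were seen, Hpse and Hs3st1 were added here because their fold changes were larger than that of Sulf2. Hpse, the enzyme that cleaves heparan sulphate, had 0.668 ± 0.233 and 1.85 ± 0.43 RPKM (limma, log2 fold change 1.36, adjusted p = 0.0102). Hs3st1, a 3-O-sulphotransferase, had 9.02 ± 0.67 and 4.46 ± 1.71 RPKM (limma, log2 fold change -1.07, adjusted p = 0.0177).

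All 24 signal transducers were tested and 0 were called in limma, compared with 6.79% of all tested genes. At an unadjusted p below 0.05 there were 4, compared with 29.7% of all tested genes. At an adjusted p below 0.05 there was 1, compared with 15.2% of all tested genes. It was Sos1, a guanine nucleotide exchange factor for RAS, named for this value after it was seen (limma, log2 fold change -0.32, adjusted p = 0.0454). The median absolute log2 fold change of the 24 was 0.15, compared with 0.17 over all tested genes. The most abundant were Gab1, Pik3r1, Mapk3 and Map2k1, with log2 fold changes of -0.31, -0.18, 0.22 and -0.16 and overlapping groups in each case.

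Of 21 feedback genes and transcriptional targets, 18 were tested, 3 were called and all 3 were higher in iPCKO samples. Of all tested genes, 6.79% were called and 4.11% were called higher. Dusp5, a nuclear phosphatase that acts on ERK, had 29.4, 22.4 and 23.8 RPKM in controls and 77.2, 58.4 and 55.4 RPKM in iPCKO samples. It rose to 253% of the control mean, with a log2 fold change of 1.33 (limma, SE 0.15, adjusted p = 0.000762). Ccnd1, which encodes cyclin D1 and responds to many growth signals, rose from 15.9, 17.4 and 15.1 RPKM to 38.1, 37.7 and 36.1 RPKM (limma, log2 fold change 1.20, SE 0.09, adjusted p = 8.09e-05). Etv4, an ETS-family transcription factor induced by FGF, rose from 15.0, 11.3 and 11.5 RPKM to 23.1, 22.4 and 22.5 RPKM (limma, log2 fold change 0.85, SE 0.12, adjusted p = 0.00193). Its relative Etv5, named because it just missed the fold threshold, had 26.4 ± 0.9 and 36.4 ± 1.0 RPKM (limma, log2 fold change 0.46, adjusted p = 0.0053). Etv1, the third ETV gene of the list and named after its value was seen, went the other way. It had 11.5 ± 0.9 and 9.14 ± 0.33 RPKM, lower in every iPCKO sample and not called (limma, log2 fold change -0.33, adjusted p = 0.0431).

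The feedback genes did not share a direction. Of the 18 tested, 10 had a positive and 8 a negative log2 fold change, with a median of 0.24. At an adjusted p below 0.05 in limma, 5 were higher and 3 lower, compared with 15.2% of all tested genes in either direction. Spry1 was the most abundant, with overlapping groups, at 87.2 ± 13.6 and 81.5 ± 12.8 RPKM (limma, log2 fold change -0.10, adjusted p = 0.712). Spry4 had 33.2, 46.0 and 48.5 RPKM in controls and 63.2, 53.5 and 49.0 RPKM in iPCKO samples, which did not overlap, although control 3 and iPCKO 3 were only slightly apart (limma, log2 fold change 0.39, adjusted p = 0.141). Dusp6, the cytoplasmic ERK phosphatase often read as an FGF target, differed in the opposite sense to Dusp5, with 37.5, 50.0 and 51.9 RPKM in controls and 34.7, 36.4 and 30.2 RPKM in iPCKO samples (limma, log2 fold change -0.45, adjusted p = 0.0625). Spred1, a membrane inhibitor of the RAS pathway, had a log2 fold change of -0.40 (limma, adjusted p = 0.0447). None of these 4 was called.

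**Figure D5:**
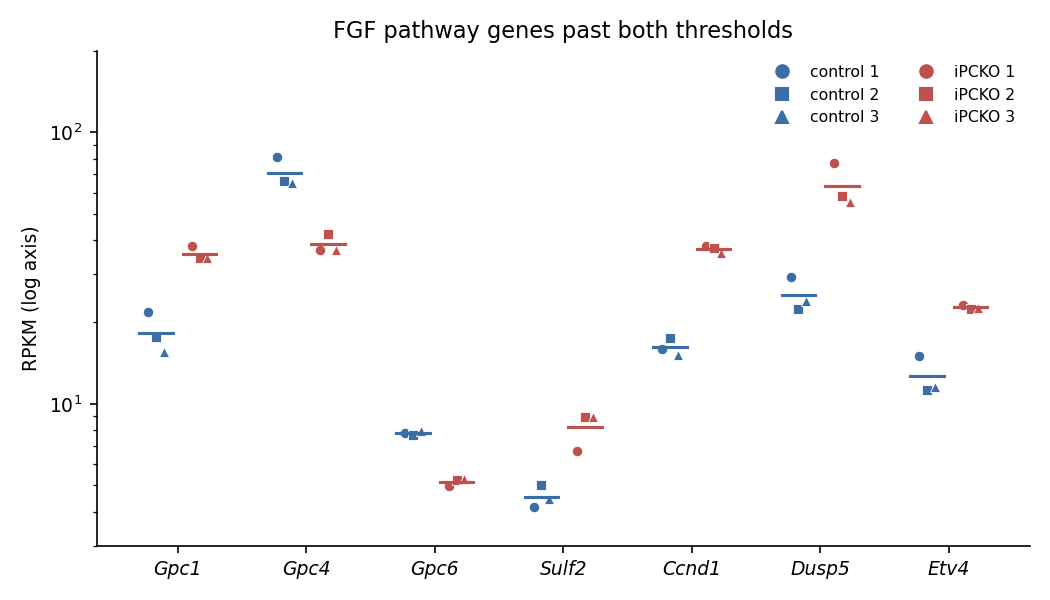
RPKM (log axis) of the 7 called FGF pathway genes in each of 3 control (blue) and 3 iPCKO (red) samples, with horizontal bars at group means. Groups are separate for every gene, and Gpc1 and Gpc4 both lie between 34.5 and 42.4 RPKM in iPCKO samples.

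The remaining FGF genes were scarcely present. Of the 12 other secreted ligands, 0 reached the filter, 4 were listed at 0 in every sample, and the highest single value was 0.263 RPKM, for Fgf16 in control 3. Of the 4 intracellular FGFs, Fgf11 was tested and had 1.55 ± 0.26 and 1.31 ± 0.20 RPKM (limma, log2 fold change -0.22, adjusted p = 0.459).

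YAP1 and TAZ act on DNA through TEAD factors, whose core motif reads GGAATG, or CATTCC on the other strand. The 250 bases before the annotated start were searched on both strands in RefSeq promoter sequences (GRCm38.p6), in which 12.6% of 32851 promoters of this length held a match. Of the FGF genes, 8 had a window, in 9 windows, and 0 held the motif. Fgf1 and Fgfr1 had no window and were not searched. Of the called pathway genes with a window, Sulf2, Gpc4 and Dusp5, a match was found in Gpc4, beginning 131 bases before the start. The windows shown are that of Fgfr2, the tested FGF gene with the lowest log2 fold change, and that of Gpc4, the called gene with a match, read 5′ to 3′ on the gene's strand, with the motif in capitals. They lie at chr7:130266809-130267058 and chrX:52164924-52165173, both on the minus strand. The Fgfr2 window precedes a RefSeq start that lies inside the longer gene span given above, which comes from GENCODE M21.
Fgfr2: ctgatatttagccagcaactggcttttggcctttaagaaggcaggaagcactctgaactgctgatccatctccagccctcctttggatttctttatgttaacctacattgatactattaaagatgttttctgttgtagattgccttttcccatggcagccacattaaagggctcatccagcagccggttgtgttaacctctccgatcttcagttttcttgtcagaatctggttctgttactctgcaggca
Gpc4: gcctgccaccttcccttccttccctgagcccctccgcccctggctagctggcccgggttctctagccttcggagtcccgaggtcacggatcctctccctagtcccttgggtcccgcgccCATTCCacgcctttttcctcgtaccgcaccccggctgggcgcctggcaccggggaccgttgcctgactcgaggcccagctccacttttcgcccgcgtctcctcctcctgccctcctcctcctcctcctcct

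The windows differ in base composition, with 44.0% G and C in Fgfr2 and 68.4% in Gpc4. A match of 6 letters describes the sequence only, and its absence from a window of this length says nothing of binding elsewhere.

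Markers of cells that could have contributed RNA differed between the groups, and each is a description of the same 6 samples. Summed over the list, pericyte markers had 6018 to 6984 RPKM in controls and 5547 to 6521 RPKM in iPCKO samples, which overlapped. Single pericyte markers differed in both directions, and 6 of 14 were called, compared with 6.79% of all tested genes. Abcc9, Cspg4 and Kcnj8 rose, with log2 fold changes of 1.15, 1.06 and 1.03, and Mcam, Notch3 and Rgs5 fell, with log2 fold changes of -1.04, -0.94 and -1.15 (limma). Myofibroblast and smooth muscle markers had a higher sum in iPCKO samples, at 1941 to 2224 RPKM compared with 1627 to 1900 RPKM. Of these 10 markers, 4 were called higher, compared with 4.11% of all tested genes. They were the contractile genes Actg2 and Cnn1 (limma, log2 fold changes 1.59 and 1.11), Lgr6 (0.77) and Aspn (0.91), which encodes the matrix protein asporin. The contractile genes Acta2, Tagln and Myh11, by contrast, overlapped between groups, with log2 fold changes of 0.05, -0.22 and -0.09. Cdh4 was lower in every iPCKO sample (limma, log2 fold change -0.73, adjusted p = 0.0238). Sums of lipofibroblast and matrix fibroblast markers overlapped, at 453 to 511 and 458 to 544 RPKM. Of 12 tested, 2 were called, compared with 6.79% of all tested genes. Npnt was lower and Inmt higher (limma, log2 fold changes -1.16 and 0.91). In bulk samples, a change in the number of cells of a type and a change in RNA per cell cannot be told apart.

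Fgfr2, Fgfr3, Fgfr4 and Fgf9 are also expressed by lung epithelium. Epithelial markers summed to 621 to 705 RPKM in controls and 888 to 947 RPKM in iPCKO samples, without overlap. Sftpc and Scgb1a1 were the largest parts of this sum, with control means of 363 and 114 RPKM. Of 15 tested markers, 7 were higher in every iPCKO sample than in any control, while 35.5% of all tested genes were separate in either direction. Called higher were 2 of the 15, compared with 4.11% of all tested genes. Nkx2-1 and Aqp5 had negative log2 fold changes (limma, -0.12 and -0.22). Fgfr2, Fgfr4 and Fgf9 were lower in iPCKO samples and Fgfr3 higher. Mesothelial markers summed to 9.46 to 12.2 RPKM in controls and 15.5 to 17.6 RPKM in iPCKO samples, in the opposite sense to Fgf9. Of 5 tested, 1 was called higher, compared with 4.11% of all tested genes. Sums of endothelial markers overlapped, at 162 to 173 and 172 to 187 RPKM. Of 12 tested, 2 were called higher, Kdr and Vwf (limma, log2 fold changes 0.77 and 0.72), compared with 4.11% of all tested genes. Emcn and Erg were lower in every iPCKO sample and not called (limma, log2 fold changes -0.45 and -0.12). Of the 12 endothelial markers, 6 had a positive and 6 a negative log2 fold change. Cartilage also expresses Fgfr3 and Fgf18. Its markers had 0.911 to 2.39 RPKM in sum in controls and 2.23 to 3.50 RPKM in iPCKO samples, and 0 of 6 reached the filter. The sums of cartilage markers overlapped between groups. Sox9 (0.355 ± 0.106 and 1.17 ± 0.31 RPKM) and Acan (0.173 ± 0.094 and 0.969 ± 0.294 RPKM) were higher in every iPCKO sample than in any control. Col2a1, the most abundant of the list in controls, overlapped (0.84 ± 0.59 and 0.91 ± 0.23 RPKM). Cnmd and Matn1, near 0, had lower means in iPCKO samples.

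Leukocyte markers summed to 58.9 to 82.5 RPKM in controls and 151 to 270 RPKM in iPCKO samples, and neutrophil markers to 84.8 to 124 RPKM compared with 445 to 4838 RPKM. Compared with 6.79% of all tested genes, 8 of 10 leukocyte and 6 of 10 neutrophil markers were called, all higher in iPCKO samples. In the same samples the called genes Gpc1, Sulf2, Dusp5, Etv4 and Ccnd1 and the uncalled Fgfr1, Fgfr3 and Fgf2 were higher, and the called Gpc4 and Gpc6 and the uncalled Fgfr2 and Fgfr4 were lower. The part of epithelial, mesothelial, endothelial, muscle and blood cells in these values was not tested.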

How the data were processed

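RNA immunoprecipitated with anti-HA beads from lungs of 3 control and 3 iPCKO mice was analysed, and separate mice were taken as replicates. The authors aligned reads to mm10 (TopHat), obtained gene counts (HTSeq 0.6.1), used DESeq2 for their own tests and deposited RPKM values, 1 table per sample. The exon length used for RPKM and the strand setting are not given in the sources used here. Symbols and coordinates come from GENCODE M21 (GRCm38), which matched 21452 of 21603 genes.

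The test was limma 3.58.1 (R 4.3.3) on log2(RPKM + 0.1) with a trend on intensity. P-values were adjusted by Benjamini-Hochberg over the 12034 genes with 3 or more samples at 1 RPKM or more. Fold changes are iPCKO minus control on that scale, which understates changes of low genes. The code was checked on simulated data. Implied depth was read from low RPKM values of genes with at most 10 reads, of which 74.8% to 76.9% per sample lay within 0.02 reads of a whole number, and reads per gene are estimates from it. Tables and figures were made in Python 3.11.15 (pandas 2.3.3, numpy 2.4.6, matplotlib 3.10.9).

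The FGF genes, the pathway and marker lists and the tests were chosen with earlier results of these data known. The text names every FGF ligand and receptor, every called pathway gene and, for each list, up to 4 uncalled pathway genes of highest mean RPKM. Other genes named are said to have been picked after their values were seen. For markers, sums over each list are given, with single markers chosen after their values were seen. The alternatives were a replicate block, 2 other filters, pseudocounts of 1 and 0.01, median-ratio scaling, no intensity trend, sample weights, an adjusted p of 0.05, a log2 fold change of 1 and leaving out each sample. Isoforms, input RNA and proteins were not analysed here.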

Additional observations from a re-analysis of the deposited data

How the results depend on the processing

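With sample weights, 1 FGF gene was called, Fgfr1 (log2 fold change 0.56, limma, adjusted p = 0.000249), and under every other alternative run, the replicate block included, 0 of the tested FGF genes were called. Fgfr1 ranged from 0.38 to 0.56 (adjusted p 0.000249 to 0.0819) and Fgfr2 from -0.49 to -0.36 (0.000508 to 0.0852), and both had an adjusted p above 0.05 without control 2, control 3 or iPCKO 2, Fgfr1 also without iPCKO 3. The sign of Fgf7 turned with sample weights (0.18) and without control 2 (0.13), iPCKO 1 (0.07) or iPCKO 3 (0.08), with leave-one-out values from -0.18 to 0.13, and that of Fgf10 turned with sample weights (0.0811), with leave-one-out values from -0.39 to -0.01. Fgf18 ranged from -0.47 to -0.18 with each sample left out. The 7 called pathway genes became 2 at a log2 fold change above 1, 11 at an adjusted p below 0.05, 13 with sample weights, 10 with the replicate block and 4 to 10 with each sample left out, the 4 being Ccnd1, Dusp5, Gpc1 and Gpc4 without control 3 or without iPCKO 2. The 817 called genes became 411, 1313, 1590, 922 and 363 to 804 under the same settings, with 544 without control 2, 363 without control 3, 373 without iPCKO 2 and 455 without iPCKO 3. The cause of these shifts was not tested.

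Deviations of samples with the same number correlated at 0.238, 0.092 and 0.022, and those with different numbers at -0.298 to 0.273. With 3 samples per group, these values cannot show whether samples of the same number shared a litter or a batch. The labels give only the number, and the replicate block is given for its counts alone. Fewer than 100 reads stood behind the lowest values of Fgf7, Fgf9 and Fgf10, which limits these 3 most.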
